A study of Rattus norvegicus with 48 samples.

Results

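The disposal of cholesterol by the liver was followed through 3 genes in RNA-Seq data of rat liver. The genes are Cyp7a1 (ENSRNOG00000009488), Abca1 (ENSRNOG00000018126) and Abcg5 (ENSRNOG00000005250), chosen by their Ensembl identifiers from the 32662 genes listed in the deposited tables. Livers came from 48 male Wistar rats (RjHan:WI) that were 6 weeks old at the start. Of these, 24 received CDAA, an amino acid-defined diet deficient in choline to which 1% cholesterol was added, and 24 received CSAA, the control diet of the same type with choline, with 8 animals per diet after each of 4, 8 and 12 weeks. The diets also differed in methionine (0.17% in CDAA and 0.4% in CSAA), in fat (31% against 16% of the energy), in carbohydrates (58% against 72%) and in protein (11% against 12%), so that cholesterol, choline, methionine and fat cannot be told apart as the source of a difference. The animals were housed in pairs, but the labels do not say which animals shared a cage, and each animal was counted as 1 replicate. Each week was sampled from different animals, so that time on a diet, age and the occasion of sampling cannot be told apart. The hour at which the livers were taken was not among the labels used.

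Hepatocytes convert cholesterol into bile acids or pass it on unchanged. Cyp7a1 encodes the rate-limiting enzyme of the classical pathway of bile acid synthesis. It is found almost only in hepatocytes, is repressed by bile acids returning from the gut and follows a daily rhythm. Abca1 encodes the membrane transporter that loads cholesterol and phospholipids onto apolipoproteins and so forms nascent high density lipoprotein, and it is active in macrophages as well as in hepatocytes. Abcg5 encodes a subunit of the sterol transporter with which hepatocytes secrete cholesterol and plant sterols into bile, and Abcg8 encodes its partner. Both transporters, and in rats and mice also Cyp7a1, are known targets of the liver X receptors, nuclear receptors for oxysterols.

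The annotated promoters of the transporter genes are printed to show the sequence around their start sites. The deposited counts are per gene and do not show where transcripts began. Of the 3 genes, 2 matched an entry in the RefSeq promoter table of build GRCr8, which covers 250 bases before and 50 bases after each start site. The Abca1 window lies at chr5:72596424-72596723 on the minus strand and the Abcg5 window at chr6:15717686-15717985 on the plus strand. Both are written 5′ to 3′, and capitals mark motifs searched on both strands. An E-box was searched as the letters CACGTG. The box at which many start sites are positioned was searched as TATAAA. The core of binding sites for GATA factors was searched as GATAAG. A spaced repeat was searched as TGACC followed after a gap of 5 bases by the letters TAACC.
Abca1: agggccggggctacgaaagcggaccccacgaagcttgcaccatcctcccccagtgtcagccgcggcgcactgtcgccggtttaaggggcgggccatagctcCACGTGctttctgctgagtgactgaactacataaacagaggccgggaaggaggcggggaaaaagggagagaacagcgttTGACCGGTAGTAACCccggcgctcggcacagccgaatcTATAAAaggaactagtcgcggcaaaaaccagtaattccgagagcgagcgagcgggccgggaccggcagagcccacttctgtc
Abcg5: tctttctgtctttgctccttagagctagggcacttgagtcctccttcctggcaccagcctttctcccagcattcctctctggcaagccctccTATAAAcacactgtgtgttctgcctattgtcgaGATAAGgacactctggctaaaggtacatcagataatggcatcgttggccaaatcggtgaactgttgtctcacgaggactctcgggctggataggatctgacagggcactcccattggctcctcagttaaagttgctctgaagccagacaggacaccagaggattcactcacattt
The motifs were chosen after the sequences had been read, and a match describes letters and not a bound site. In Abca1, TATAAA began 32 bases before the start site and CACGTG 149 bases before it. The spaced repeat began 70 bases before the Abca1 start. These are, on the opposite strand, the letters of the direct repeat known as the liver X receptor element of this gene. Among all 33469 promoters of this length, 18 (0.0538%) held the spaced repeat, 14.2% held TATAAA, 6.42% held CACGTG and 7.05% held GATAAG. In Abcg5, GATAAG began 125 bases before the start site and TATAAA 158 bases before it. The Abca1 window had a GC content of 61% and 27 CG dinucleotides, and the Abcg5 window had 50.3% and 5. The start sites of Abcg5 and Abcg8 lay 206 bases apart on opposite strands, so that their windows shared 295 bases.

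The libraries held 13619274 to 22284359 reads on genes. The reads on Cyp7a1 ranged from 158 to 21478 per animal, on Abca1 from 1476 to 6401 and on Abcg5 from 18 to 597. For Abcg5 counting error alone corresponded to a coefficient of variation of 5.05% to 11.3% in the 6 groups, whereas the observed one was 31.1% to 67.7%. The diets differed in library composition, for which edgeR corrects with TMM factors. At week 12 these averaged 0.777 ± 0.0441 (SD, n = 8) for CSAA livers compared to 1.37 ± 0.0513 (SD, n = 8) for CDAA livers. The deposited RPKM (reads scaled to the length of a gene and to the size of the library) carry no such correction. Scaling to library size alone placed the median log2 fold change of all tested genes at 0.39, 0.65 and 0.73 at weeks 4, 8 and 12, compared to -0.02, 0.05 and -0.09 with TMM. TMM assumes that most genes do not change, so medians near 0 do not show that it is the right scale. Library composition and a broad change of many genes cannot be told apart here. Animals 303 (CDAA, week 4), 504 (CSAA, week 8) and 908 (CSAA, week 12) had the lowest mean Pearson's r with the other animals of their groups, 0.950, 0.965 and 0.961. Animal 1102 had the lowest among CDAA at week 12, 0.978. The lowest of the remaining groups were animal 102 (CSAA, week 4, 0.973) and animal 701 (CDAA, week 8, 0.978). Both were kept in the fit without animals 303, 504, 908 and 1102. The counts of animals 1105 to 1108 (CDAA, week 12) were closer to each other than those of other pairs within groups, with a chi-square per gene of 3.396 to 9.67 over their 6 pairs against at least 11.3 in the other 162 pairs. Sampling noise alone would give about 1, but such values cannot tell separate livers from separate preparations of a single liver. The labels name separate animals, and all were kept as separate samples. The identifiers could not be paired with gene names here, so the tissue was not checked against liver markers. In whole liver, fewer cells of a type and less RNA per cell cannot be told apart.

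Cyp7a1 was strongly higher on CDAA at all 3 time points. On CSAA, the lowest, median and highest RPKM were 2.37, 13.98 and 19.7 at week 4. They were 5.15, 18.5 and 69.1 at week 8 and 14.5, 29.3 and 89.9 at week 12. On CDAA they were 73.4, 132 and 232 at week 4, 144, 225 and 257 at week 8 and 169, 233 and 324 at week 12. All 8 CDAA animals lay above all 8 CSAA animals of the same week, at each of the 3 weeks. The same lack of overlap in RPKM, with CDAA higher, was found for 13.9%, 45.6% and 54.5% of the tested genes at the 3 weeks in turn. For Cyp7a1 it was also present in the CPM scaled with TMM factors, a scale on which the share of all tested genes was not counted. The highest CSAA values at weeks 8 and 12 belonged to animals 504 and 908, and without these animals the CSAA values reached 51.2 and 42.5.

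**Figure D1:**
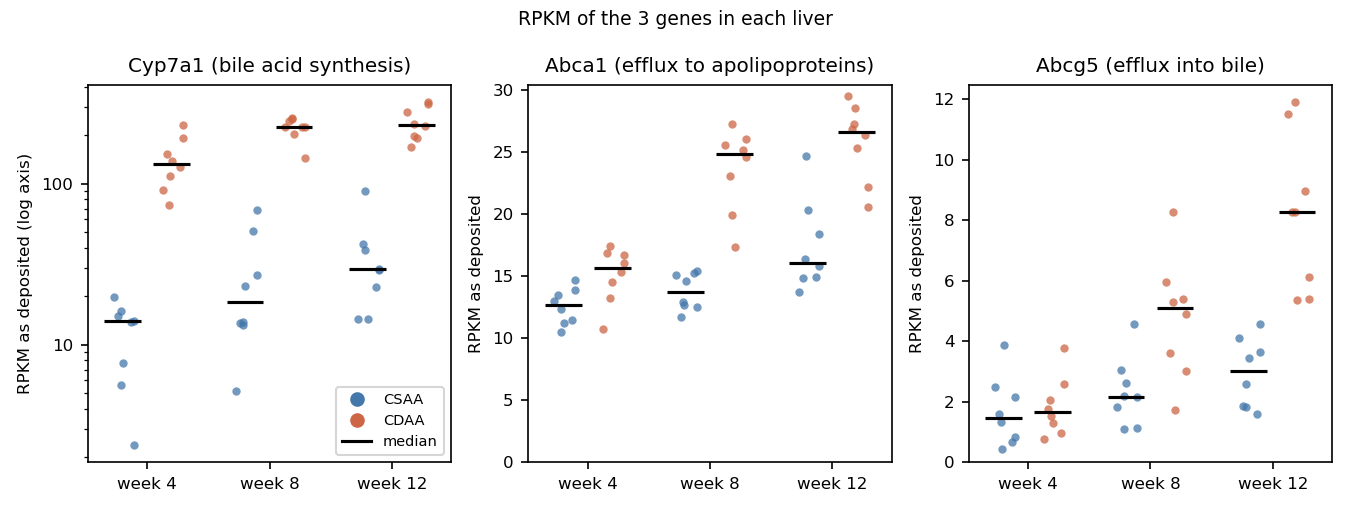
RPKM as deposited (vertical axes, log axis for Cyp7a1, linear from 0 for Abca1 and Abcg5) of each liver by week (horizontal axis), with CSAA in blue, CDAA in orange, 8 animals per group and black bars for medians. Cyp7a1 on CDAA lies above CSAA in every week without overlap, while Abca1 and Abcg5 medians are also higher on CDAA on this scale, a direction that turns with TMM scaling for Abca1 at weeks 4 and 12 and for Abcg5 at week 4.

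The diet effect was tested by quasi-likelihood with edgeR over all 48 animals and 12756 genes. A gene was called when its Benjamini-Hochberg adjusted p was under 0.01 and its log2 fold change reached 1 in either direction. At week 4 Cyp7a1 was 8.996-fold higher on CDAA (95% interval 5.34 to 15.1, log2 fold change 3.17, SE 0.37, edgeR adjusted p = 1.03e-09). The fold was 5.58 at week 8 (3.37 to 9.25, log2 fold change 2.48, SE 0.36, edgeR adjusted p = 5.18e-08). At week 12 it was 4.01 (2.45 to 6.59, log2 fold change 2.01, SE 0.36, edgeR adjusted p = 2.25e-06). Cyp7a1 was therefore called higher at each week, where 15.7%, 18.1% and 19.4% of all tested genes were called higher on CDAA. Among the tested genes ordered from the largest increase on CDAA, it held place 188 at week 4, 298 at week 8 and 1138 at week 12. Without animals 303, 504, 908 and 1102 the log2 fold changes were 3.21, 2.80 and 2.32, and library size alone as the scale gave 3.57, 3.04 and 2.79.

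**Figure D2:**
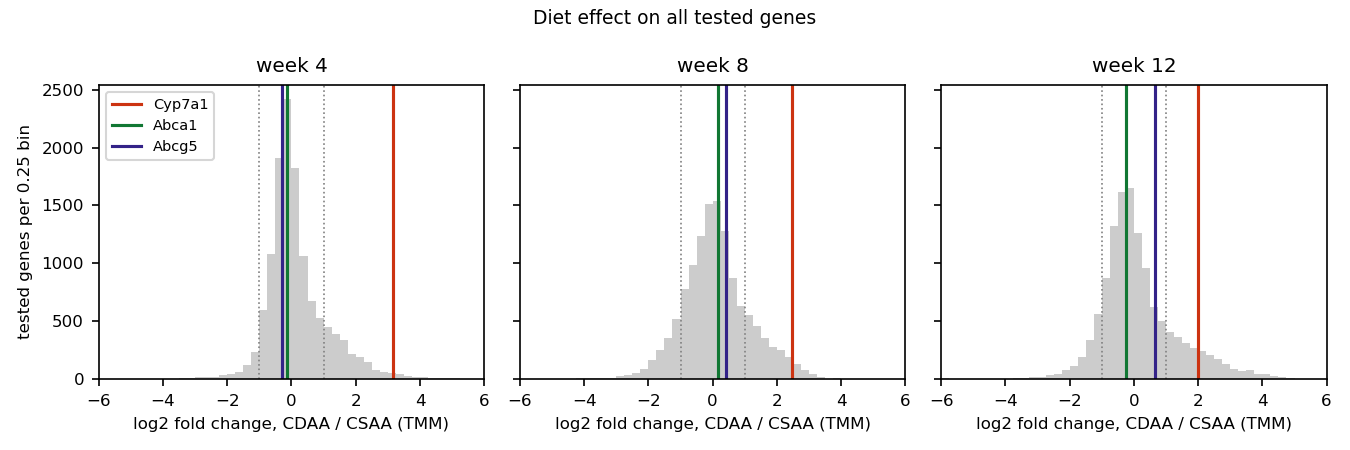
Number of tested genes (vertical axis, bars) by log2 fold change of CDAA against CSAA with TMM scaling (horizontal axis) at weeks 4, 8 and 12, with coloured lines for the 3 genes and dotted lines at the fold change threshold of 1 in either direction. Cyp7a1 stands in the right tail at 3.17, 2.48 and 2.01, whereas Abca1 and Abcg5 stand within the thresholds at each week. With library size alone, Abcg5 would pass 1 at weeks 8 and 12 and turn sign at week 4, and Abca1 would turn sign at weeks 4 and 12.

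Cyp7a1 also rose with time in the control livers. On CSAA it rose 3.06-fold from week 4 to week 12 (log2 fold change 1.61, SE 0.35, edgeR adjusted p = 0.000252), a comparison in which 2.68% of the genes were called. Without animal 908 this log2 fold change was 1.30 and was still called, and without all of animals 303, 504, 908 and 1102 it was 1.29. From week 4 to week 8 it was 1.08 (SE 0.35, edgeR adjusted p = 0.0740) and from week 8 to week 12 it was 0.53 (SE 0.34, edgeR adjusted p = 0.230), and neither was called. On CDAA the log2 fold change of Cyp7a1 from week 4 to week 12 was 0.45 (SE 0.34, edgeR adjusted p = 0.258, 95% interval -0.24 to 1.14). The diet effect at week 12 minus that at week 4 was -1.16 (SE 0.49, edgeR adjusted p = 0.0596), which did not pass the threshold, with 5.04% of the genes called in this test of the difference. The decline of the fold from 8.996 to 4.01 was thus not established as a difference between the weeks, and without the 4 animals it was -0.89 (edgeR adjusted p = 0.128).

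Ordered by median RPKM, Cyp7a1 ran from CSAA at week 4 through CSAA at weeks 8 and 12 to CDAA at weeks 4, 8 and 12. Each group overlapped with the next in this order. The overlap between the diets in this order arose from animal 908 (89.9 RPKM on CSAA at week 12) and from CDAA at week 4, where the lowest animal had 73.4 RPKM, and without animal 908 the highest CSAA animal of week 12 had 42.5. By its median RPKM the gene ranked 3296, 2758 and 1779 among 32662 genes on CSAA at weeks 4, 8 and 12, and 581, 296 and 287 on CDAA.

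The spread between animals of Cyp7a1 was large on CSAA and smaller on CDAA. The coefficient of variation of RPKM was 50.1%, 81.3% and 69.1% on CSAA and 37.4%, 16.2% and 23.5% on CDAA at weeks 4, 8 and 12. It was 39.9% without animal 908 on CSAA at week 12 and 8.08% without animal 704 on CDAA at week 8. Without animal 102 it was 37.1% on CSAA at week 4, so that at this week the difference between the diets rested on that animal. Whether the spread differs between the diets was not tested. On CSAA at week 4 the lowest animal (102, 2.37 RPKM) and the highest (103, 19.7 RPKM) differed 8.29-fold. Across the 6 groups the SD of log2 CPM within groups was 0.757, higher than that of 95.8% of the tested genes, whose median was 0.256. For Abcg5 it was 0.700, higher than that of 94.1% of the genes, and for Abca1 0.191, higher than that of 26.9%. Among genes within 2-fold of the same mean level, the shares were 98.7% for Cyp7a1, 96.5% for Abcg5 and 46.2% for Abca1.

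Abca1 was not called between the diets at any week by edgeR, limma-voom or DESeq2. Its lowest, median and highest RPKM on CSAA were 10.5, 12.7 and 14.7 at week 4, 11.7, 13.7 and 15.4 at week 8 and 13.7, 16.1 and 24.7 at week 12. On CDAA they were 10.7, 15.7 and 17.4 at week 4, 17.4, 24.9 and 27.3 at week 8 and 20.6, 26.6 and 29.5 at week 12. At week 8, 45.6% of all tested genes had every CDAA animal above every CSAA animal in RPKM. For Abca1 in RPKM the CDAA animals stood above all CSAA animals in 5 of 8 cases at week 4, 8 of 8 at week 8 and 6 of 8 at week 12. In CPM scaled with TMM factors the numbers were 0, 6 and 0 of 8, and at weeks 4 and 12 the CDAA median was below that of CSAA, with 146 against 159 at week 4 and 199 against 212 at week 12. The order of the diets for Abca1 thus turned with the scale.

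With TMM the log2 fold change of Abca1 on CDAA was -0.15 at week 4 (SE 0.10, edgeR adjusted p = 0.173), 0.18 at week 8 (SE 0.10, edgeR adjusted p = 0.0919) and -0.25 at week 12 (SE 0.10, edgeR adjusted p = 0.0182). Of all tested genes, 19.9%, 30.2% and 30.7% were called in either direction in these comparisons. At an unadjusted p under 0.05 in edgeR, Abca1 passed at week 12, where 78.1% of all tested genes did, and at no other week. Library size alone turned the sign at weeks 4 and 12 and gave 0.26, 0.78 and 0.57. Relative to the shift of all genes on that scale, these values were lower at weeks 4 and 12 (0.39 and 0.73) and higher at week 8 (0.65). Abca1 is one of the longest genes, with 10339 bases, longer than 99.3% of the tested genes. When the trend of log2 CPM on gene length was removed in each animal, the log2 fold change was -0.23 at week 4, -0.44 at week 8 (edgeR adjusted p = 1.57e-05) and -0.63 at week 12 (edgeR adjusted p = 1.08e-08), which turned the sign at week 8 and stayed under the fold change threshold. The 95% intervals with TMM bounded the difference between 0.790-fold and 1.03-fold at week 4, 0.989-fold and 1.29-fold at week 8 and 0.737-fold and 0.963-fold at week 12.

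**Figure D3:**
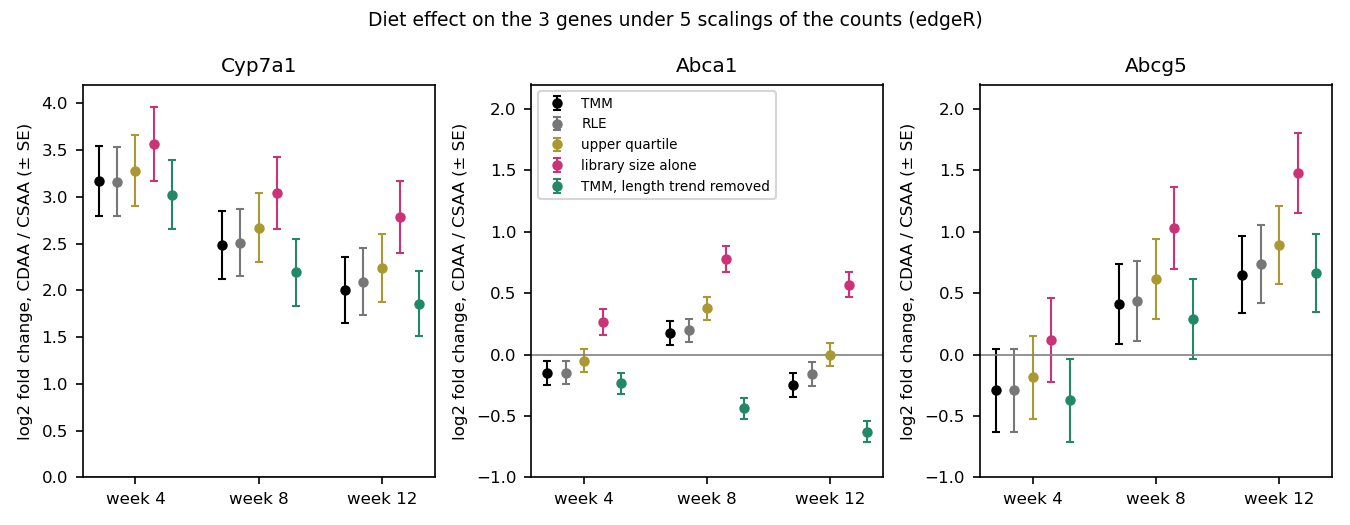
Log2 fold change of CDAA against CSAA (vertical axes, points with SE bars) of the 3 genes at weeks 4, 8 and 12 (horizontal axis) from edgeR under 5 scalings of the counts given by colour. Cyp7a1 lies above 0 under each of them, while Abca1 at week 12 runs from -0.63 with the length trend removed to 0.57 with library size alone, and Abcg5 at week 12 from 0.65 with TMM to 1.48 with library size alone.

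Over time the differences in Abca1 were under the fold change threshold on both diets. From week 4 to week 12 the log2 fold change was 0.52 on CSAA (SE 0.10, edgeR adjusted p = 2.29e-05) and 0.42 on CDAA (SE 0.10, edgeR adjusted p = 0.000203). Neither was called, and with the length trend removed that on CDAA was -0.19. The diet effect at week 12 minus that at week 4 was -0.10 (95% interval -0.37 to 0.17). With the length trend removed it was -0.40 (edgeR adjusted p = 0.00996), under the fold change threshold, and the value on CSAA was 0.21 (edgeR adjusted p = 0.0542). With library size alone it was 0.31 (edgeR adjusted p = 0.0906). From week 4 to week 8 the log2 fold change on CDAA was 0.38 (edgeR adjusted p = 0.000865), and from week 8 to week 12 that on CSAA was 0.46 (edgeR adjusted p = 0.000110). With the length trend removed these were -0.15 (edgeR adjusted p = 0.156) and 0.16 (edgeR adjusted p = 0.159). The diet effect at week 12 minus that at week 8 was -0.42 (SE 0.14, edgeR adjusted p = 0.0135), and was not called. Of the tested genes, 4.01% were called in that test of the difference, 2.78% from week 8 to week 12 on CSAA and 5.02% from week 4 to week 8 on CDAA. On CSAA at week 12 the highest animal, 906 with 24.7 RPKM, lay within the range of CDAA at week 12, whereas the group's median was 16.1.

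Abcg5 rose over time on CDAA and was not called between the diets. It was the least abundant of the 3 genes per length. Its lowest, median and highest RPKM on CSAA were 0.443, 1.46 and 3.86 at week 4, 1.10, 2.17 and 4.57 at week 8 and 1.60, 3.02 and 4.57 at week 12. On CDAA they were 0.773, 1.66 and 3.78 at week 4, 1.73, 5.09 and 8.26 at week 8 and 5.36, 8.28 and 11.9 at week 12. At week 4 the diets overlapped throughout, with no CDAA animal above the highest CSAA animal. At week 12 all 8 CDAA animals lay above all CSAA animals in RPKM, but 4 of 8 did so in CPM scaled with TMM factors. Full separation in RPKM at week 12, with CDAA higher, was found for 54.5% of all tested genes.

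From week 4 to week 12 Abcg5 rose 3.52-fold on CDAA (95% interval 2.23 to 5.57, log2 fold change 1.82, SE 0.33, edgeR adjusted p = 7.31e-06), in a comparison in which 10.6% of the genes were called. The call held without each of the 16 animals concerned, with log2 fold changes of 1.71 to 2.04, and without animals 1106, 1107 and 1108 (1.67). From week 4 to week 8 the fold was 2.17 (1.37 to 3.43, log2 fold change 1.12, SE 0.33, edgeR adjusted p = 0.00424) and was called, but the call was lost when animal 301, 303, 307 or 706 was left out, with log2 fold changes of 0.97 to 1.05. From week 8 to week 12 the log2 fold change was 0.70 (SE 0.31, edgeR adjusted p = 0.192) and was not called, with 1.43% of the genes called. On CSAA it was 0.87 from week 4 to week 12 (SE 0.33, edgeR adjusted p = 0.0328), which was called without animal 101 alone (1.16). From week 4 to week 8 on CSAA, where 0.047% of the genes were called, it was 0.41 (SE 0.34, edgeR adjusted p = 0.529).

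Between the diets the log2 fold change of Abcg5 with TMM was -0.29 at week 4 (SE 0.34, edgeR adjusted p = 0.461), 0.42 at week 8 (SE 0.32, edgeR adjusted p = 0.243) and 0.65 at week 12 (SE 0.32, edgeR adjusted p = 0.0583). At week 12 the 95% interval ran from 1.01-fold to 2.45-fold. Library size alone turned the sign at week 4 (0.12) and led to calls at week 8 (1.03, edgeR adjusted p = 0.00418) and week 12 (1.48, edgeR adjusted p = 6.40e-05). On that scale 4836 of 12756 genes were called at week 8 and 5172 at week 12. The diet effect at week 12 minus that at week 4 was 0.94 (SE 0.46, edgeR adjusted p = 0.112) and that at week 8 minus week 4 was 0.71 (SE 0.47, edgeR adjusted p = 0.257, with 4.25% of the genes called). The increase of Abcg5 from week 4 to week 12 on CDAA thus did not pass the test of its difference from CSAA with TMM. With library size alone that difference was 1.36 (edgeR adjusted p = 0.0199) and was not called, and with limma on log2(RPKM + 1) it was 1.10 (limma adjusted p = 0.00588) and was called. In that limma fit 524 of 12756 genes were called for week 12 minus week 4. With TMM in edgeR and limma-voom and with DESeq2, none of the 3 genes was called in a difference of the diet effect between weeks. At an unadjusted p under 0.05 in edgeR there was 1 of the 3 genes each for week 8 minus week 4 and week 12 minus week 8, where 41.7% and 41.5% of all tested genes passed that limit. For week 12 minus week 4 there were 2 of the 3, where 43.1% passed it.

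Ratios between the genes within a liver do not depend on the scaling of the library, but a trend on gene length was not removed from them. Per length, Cyp7a1 and Abca1 were at similar levels on CSAA, with median ratios of 1.06, 1.37 and 1.58 at weeks 4, 8 and 12. On CDAA there was 8.81, 9.28 and 8.68 times as much Cyp7a1 as Abca1 by the median. The highest ratio on CSAA was 1.55, 4.49 and 5.50 at the 3 weeks and the lowest on CDAA 4.22, 5.54 and 6.30, so that the diets did not overlap within any week. The ratio of Cyp7a1 to Abcg5 had medians of 10.8, 9.99 and 11.1 on CSAA and of 88.01, 44.99 and 27.1 on CDAA. The diets did not overlap in this ratio at week 4 but did at week 8, where the highest CSAA ratio was 32.0 and the lowest CDAA ratio 29.4, and at week 12, with 34.5 and 16.7. On CDAA it spanned 35.8 to 132 at week 4 and 16.7 to 60.1 at week 12, with overlapping ranges. The ratio of Abca1 to Abcg5 had medians of 8.19, 6.45 and 6.11 on CSAA and of 9.06, 4.99 and 3.27 on CDAA, and the diets overlapped at all 3 weeks. These ratios were not tested. The share of all tested genes whose ratio to Abca1 or Abcg5 also lacked overlap between the diets was not counted. In RPKM, Cyp7a1 alone already lacked overlap at each week, as did 13.9%, 45.6% and 54.5% of the tested genes with CDAA higher.

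**Figure D4:**
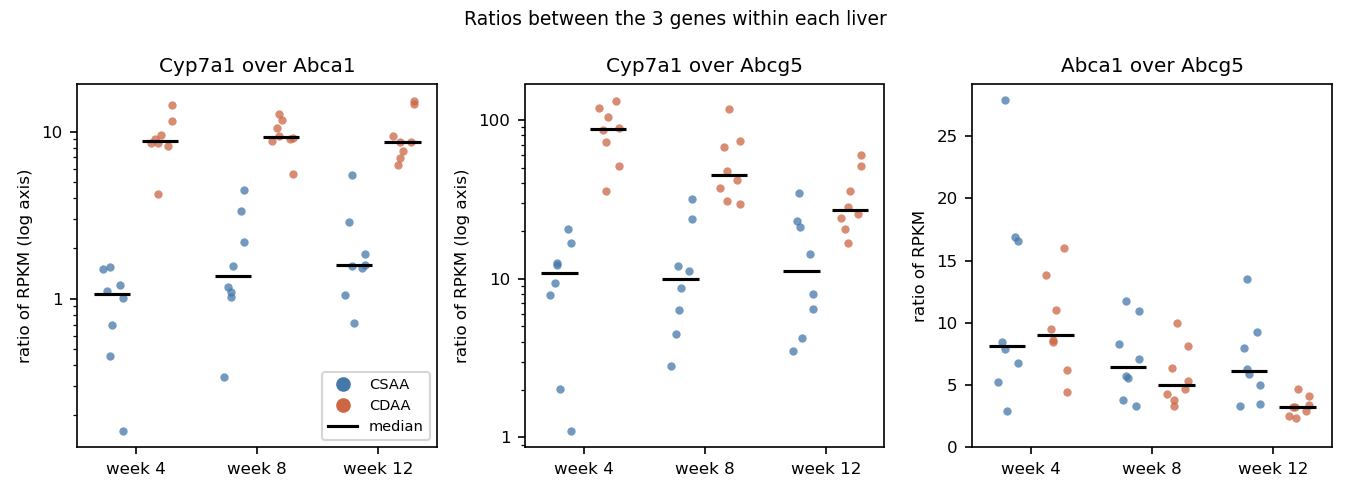
Ratio of the RPKM of 2 genes within each liver (vertical axes, log axis for the ratios of Cyp7a1, linear from 0 for Abca1 over Abcg5) by week (horizontal axis), with CSAA in blue, CDAA in orange and black bars for medians of 8 animals. The ratio of Cyp7a1 to Abca1 stays near 9 on CDAA, with medians of 8.81, 9.28 and 8.68, whereas that of Cyp7a1 to Abcg5 has medians of 88.01, 44.99 and 27.1.

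The 3 genes were compared between animals of the same diet and week. Pearson's r of the deviations from the group means over 48 animals was -0.15 for Cyp7a1 and Abca1, 0.02 for Cyp7a1 and Abcg5 and 0.31 for Abca1 and Abcg5, given as descriptions. The value of 0.31 was above the r with Abcg5 of 98.2% of the other tested genes. The livers share library preparation and TMM scaling across genes. For Abca1 and Abcg5, r was 0.71 over the 24 CDAA animals and 0.02 over the 24 CSAA animals, a split that was looked at after the values were seen. Whether r differs between the diets was not tested, and the share of other genes reaching 0.71 with Abcg5 in the CDAA animals was not counted. Without animals 303, 504, 908 and 1102, r of Abca1 and Abcg5 was 0.71 over 22 CDAA animals and -0.0066 over 22 CSAA animals. Over these 44 animals together, r was -0.07, 0.06 and 0.29 for the 3 pairs in the order given. With library size alone, r of Cyp7a1 and Abca1 over 48 animals turned to 0.02.

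**Figure D5:**
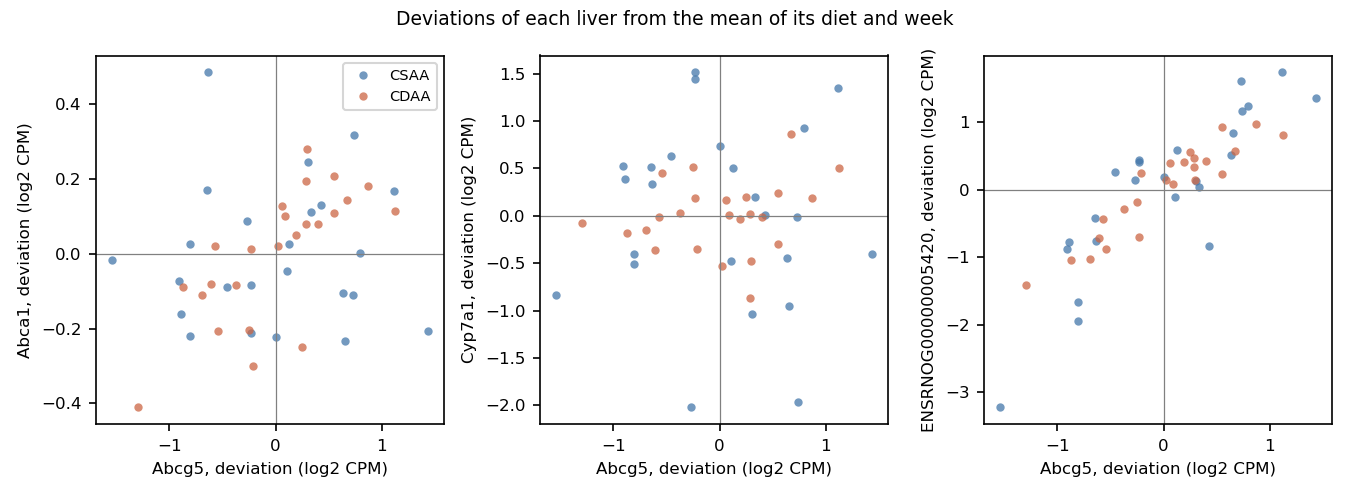
Deviation of each liver from the mean of its diet and week in log2 CPM with TMM factors, with Abcg5 on the horizontal axes and Abca1, Cyp7a1 and ENSRNOG00000005420 on the vertical axes (CSAA in blue, CDAA in orange, 24 animals each). Points of Abcg5 and ENSRNOG00000005420 follow a line (r 0.87 over 48 animals), whereas those of Abcg5 and Cyp7a1 do not (r 0.02).

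Among the 12755 other tested genes, the one most like Abcg5 was ENSRNOG00000005420, with r 0.92 over 48 animals and 0.87 for the deviations from group means. With TMM, no other gene had an r over 0.8 with Abcg5 in either measure. With library size alone, ENSRNOG00000055687 (r 0.814) and ENSRNOG00000024795 (r 0.807) also passed 0.8 over 48 animals. The likeness of Abcg5 and ENSRNOG00000005420 was found on both diets, with r 0.86 on CSAA and 0.93 on CDAA for the deviations. Without animals 303, 504, 908 and 1102 this r was 0.88. ENSRNOG00000005420 was at a lower level per length, with median RPKM of 0.205, 0.282 and 0.349 on CSAA and 0.295, 0.820 and 1.48 on CDAA at weeks 4, 8 and 12, and its reads ranged from 0 to 213 per animal. Its log2 fold change between the diets was -0.41, 0.71 and 1.04 at the 3 weeks and was not called (edgeR adjusted p = 0.453, 0.131 and 0.0198). Cyp7a1 had 880 genes with r over 0.8 across all animals, led by ENSRNOG00000017328 (r 0.91), and no gene over 0.8 in the deviations. ENSRNOG00000017328 was called higher on CDAA at all 3 weeks, with log2 fold changes of 2.27, 1.82 and 1.62. For Abca1, 11 genes had r over 0.8, led by ENSRNOG00000007887 (r 0.85), whose log2 fold change between the diets was -0.15, 0.22 and -0.08 with TMM and was not called.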

How the data were processed

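RNA of 48 livers was measured by stranded mRNA-Seq, 8 per diet and week, with groups and animal numbers from the labels. The authors aligned single-end reads to Rnor_6.0 (Ensembl 84) with STAR, counted reads per gene with featureCounts and deposited these counts without normalization. The authors also deposited RPKM, for which reads were divided by gene length and library size. No column of values was left unassigned.

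All groups entered a single quasi-likelihood fit of edgeR 4.0.16 (R 4.3.3) with TMM factors. Genes reaching 1 CPM in 5 or more of the 8 animals of any group were tested (12756). Log2 CPM used a prior count of 2. Alternatives were limma-voom (limma 3.58.1, the test of the study), DESeq2 1.42.0, other scalings, no filter on low counts, the animals of a week alone, limma on log2(RPKM + 0.1) and log2(RPKM + 1), removal of the gene length trend, and leaving out animals. The fit without animals 1106, 1107 and 1108 was added after the data were seen. In simulated counts of CDAA against CSAA at week 12, 200 of 12756 genes had a log2 fold change of 2, and edgeR found 195 of these and made 0 false calls. These counts used the same expression profile for all groups, without the difference in library composition of the real livers. With a trend on gene length added to CDAA at week 12, edgeR found 187 and made 2075 false calls. With that trend removed it found 195 and made 0. The gene lengths of this simulation were drawn at random, and the slope of the trend was set by hand and not measured in the livers. The false calls therefore do not show how many calls in the real livers depend on length. The main fit did not remove a length trend.

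The 3 genes and the lists were chosen with earlier results of these data known. The 3 genes were all to be named, and for each the most alike genes by r, of which the first is given. The 13 gene lists of pathways and cell types were not used here, since identifiers were not paired with names in the tables used. The animals of a group are labelled as separate animals, and no sequencing batch is named, so none was modelled. Reads are not independent molecules, and counting error is small beside the spread between animals.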

Additional observations from a re-analysis of the deposited data

Results flagged for a closer look

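Among the 18 combinations of gene and group, 2 contained an animal far from the others, with a gap to the nearest animal that exceeded Dixon's 95% critical value for 8 animals. Chance flags about 1 in 20 groups where values are normally distributed. The rule was applied to RPKM without a log scale, and neither their distribution nor the flags on a log scale were checked. Cyp7a1 of animal 908 (CSAA, week 12) was at 89.9 RPKM, the highest of its group, where the median was 29.3. Cyp7a1 of animal 704 (CDAA, week 8) was at 144 RPKM, the lowest of its group, where the median was 225. Animal 908 also had the lowest mean r with its group (0.961).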

How the results depend on the processing

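Of 405 values of the 3 genes under alternatives other than leaving out single animals, 379 kept their direction and side of the threshold, 6 passed the threshold and 20 changed sign. Cyp7a1 was called between the diets at all 3 weeks under each alternative run, from 3.02 to 3.71 at week 4, 2.19 to 3.43 at week 8 and 1.86 to 2.99 at week 12 (log2). limma-voom, DESeq2, RLE factors, no filter on low counts and the animals of a week alone changed no call or sign. With library size alone, Abca1 was 0.26 at week 4, 0.57 at week 12 and 0.31 for week 12 minus week 4, and Abcg5 was 0.12, 1.03 and 1.48 at weeks 4, 8 and 12. With limma on log2(RPKM + 0.1), these were 0.26, 0.58 and 0.33 for Abca1 and 0.25, 1.01 and 1.48 for Abcg5. With log2(RPKM + 1), they were 0.24, 0.56 and 0.32 for Abca1, and Abcg5 was 0.13 at week 4, 1.23 at week 12 and 1.10 for week 12 minus week 4. The last was called (limma adjusted p = 0.00588), as were 524 of 12756 genes. None of these scales has composition factors, and the RPKM fits also differ from TMM in the test and the pseudocount, whose parts were not separated. Upper quartile factors gave 0.047 for Abca1 at week 12 minus week 4. Removing the length trend gave Abca1 -0.44 at week 8, -0.21 for week 8 minus week 4, and on CDAA -0.15, -0.034 and -0.19 for week 8 against 4, 12 against 8 and 12 against 4, and the cause was not tested. Near 0, Cyp7a1 on CDAA from week 8 to 12 was -0.023 without animals 303, 504, 908 and 1102, and Abca1 there was -0.0056 without animals 1106, 1107 and 1108. Leaving out single animals gave -0.028 to 0.12 for Cyp7a1 and -0.014 to 0.081 for Abca1 in that comparison, and 0.73 to 1.16 for Abcg5 on CSAA from week 4 to 12.

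Over all genes, TMM called 2543, 3856 and 3917 at weeks 4, 8 and 12, of which 1998, 2310 and 2476 were higher on CDAA. Library size alone called 3212, 4836 and 5172, with 2966, 4289 and 4861 higher, and upper quartile factors 2642, 3872 and 3836, with 2204, 2771 and 2953 higher. limma on log2(RPKM + 1) called 1405 at week 4 and 2511 at week 8. The alternatives planned for gene lists were not run. No paired analysis was possible because the groups share no animal numbers. Depth limits Abcg5 most, with 18 reads in the lowest animal.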
